A study of Mus musculus with 9 samples.

Results

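The genes described here are 10 mouse genes of pyroptosis, the sensors Nlrp6 and Nlrc4, the adaptor Pycard, the inflammatory caspases Casp1 and Casp4, the gasdermins Gsdmd, Gsdmc2, Gsdmc3 and Gsdmc4, and the cytokine gene Il18. They were chosen by symbol, and all 10 were found among the 54838 Ensembl genes with an FPKM value (fragments per kilobase, scaled to the mapped total, a level corrected for gene length and sequencing depth) in each of 7 bulk RNA-seq libraries. The libraries came from intestinal organoids, epithelial cultures grown from crypts. The mice, labelled C57BL/6, were Vil-CreERT2;Mettl3 fl/fl. Every group carried the same floxed Mettl3 alleles and a tamoxifen-inducible Cre under the villin promoter, which acts in the intestinal epithelium. Organoids received ethanol (EtOH) or 4-hydroxytamoxifen (4-OHT, which activates the Cre) over 2 days, and either DMSO as the vehicle or necrostatin-1 (Nec-1, an inhibitor of the RIPK1 kinase) over 5 days. There was 1 library for 4-OHT Nec-1 and 2 for each of the other groups, which are 4-OHT DMSO, EtOH Nec-1 and EtOH DMSO. No group without Cre received 4-OHT, so the agent and the deletion cannot be told apart. The sources do not say whether replicates came from separate cultures or animals, so p-values measure only the spread between these libraries.

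An inflammasome is a protein complex that forms when a sensor such as NLRP6, or NLRC4 with a NAIP partner that has bound bacterial flagellin or secretion-system proteins, recruits the adaptor ASC (gene Pycard) and caspase-1. Caspase-1 cleaves gasdermin D, whose released fragment forms pores in the plasma membrane, and matures interleukin-18. Caspase-4 (caspase-11) is activated by cytosolic lipopolysaccharide and also cleaves gasdermin D. In the gut these genes are known from the epithelium itself, where NLRC4 drives the expulsion of infected enterocytes.

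All libraries had an epithelial profile. The summed FPKM of 6 epithelial markers was 2760 to 4141, against 0.00588 to 0.137 for 5 fibroblast genes. Of 8 immune markers, 5 stayed under 1 FPKM in every library, Ptprc (the pan-leukocyte marker CD45) among them with at most 0.0497. Cd3e of T cells, Cd79a of B cells and Adgre1 of macrophages were listed at 0 in 4, 5 and 4 of the 7 libraries. All 4 tuft markers were under 1 FPKM. The immune sum was 3.44 and 3.56 FPKM with EtOH DMSO, 6.18 and 5.62 with EtOH Nec-1, 7.20 and 9.07 with 4-OHT DMSO and 10.4 with 4-OHT Nec-1, mostly from the myeloid genes Cd68, Itgam and Lyz2. Of 3 immune markers tested, Cd68 was called higher in 4-OHT DMSO than in EtOH DMSO (1.73 on the log2 scale, SE 0.28, limma adjusted p = 0.00689). Itgam and Lyz2 did not pass. Of the 6 epithelial markers 4 were called higher, where 24.5% of all genes tested were. With the libraries centred on their medians, 1 immune marker rose and 1 fell, and 2 epithelial markers rose and 1 fell. The part of other cell types in the results was not tested. FPKM summed to between 450207 and 498712 per library. Replicates correlated over the 12702 genes tested with Pearson's r of 0.984 with EtOH DMSO, 0.989 with EtOH Nec-1 and 0.965 with 4-OHT DMSO. Mettl3 itself was listed at 2.70 and 2.71 FPKM with EtOH DMSO and at 3.72 and 4.14 with 4-OHT DMSO. It was higher in 4-OHT DMSO (0.41 on the log2 scale, SE 0.10, limma adjusted p = 0.0231, 1.45 times the level), and did not pass with the libraries centred on their medians (0.25, limma adjusted p = 0.0796) or scaled to the same upper quartile (0.28, limma adjusted p = 0.0640). It was not lower under any of these scalings, so the targeted gene gave no check of the labels, on which every direction rests. Fragments of the floxed exons were not separated from the rest of the gene.

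Promoters are shown for 3 members, because Nlrp6 and Casp4 were the tested members whose levels in the 4-OHT Nec-1 library lay farthest from 4-OHT DMSO, in opposite directions, and because Il18 had the largest difference between 4-OHT DMSO and EtOH DMSO. Each sequence is the 250 bases just before the annotated start on the plus strand of GRCm38.p6, from RefSeq. They lie at chr7:140920652-140920901 for Nlrp6, chr9:5308599-5308848 for Casp4 and chr9:50554450-50554699 for Il18. Capitals mark a match to the AP-1 site TGANTCA in Nlrp6 and to the NF-κB consensus in Casp4, the latter 2 overlapping matches on opposite strands.
Nlrp6: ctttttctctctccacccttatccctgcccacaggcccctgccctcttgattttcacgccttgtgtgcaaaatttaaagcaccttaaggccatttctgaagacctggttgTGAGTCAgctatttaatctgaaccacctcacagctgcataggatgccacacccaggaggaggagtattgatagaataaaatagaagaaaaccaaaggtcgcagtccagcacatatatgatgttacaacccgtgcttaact
Casp4: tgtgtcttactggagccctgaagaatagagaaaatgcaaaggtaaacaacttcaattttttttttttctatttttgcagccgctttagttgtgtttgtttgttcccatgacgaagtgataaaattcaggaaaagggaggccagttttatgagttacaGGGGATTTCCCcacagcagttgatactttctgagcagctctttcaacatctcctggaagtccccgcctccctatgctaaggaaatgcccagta
Il18: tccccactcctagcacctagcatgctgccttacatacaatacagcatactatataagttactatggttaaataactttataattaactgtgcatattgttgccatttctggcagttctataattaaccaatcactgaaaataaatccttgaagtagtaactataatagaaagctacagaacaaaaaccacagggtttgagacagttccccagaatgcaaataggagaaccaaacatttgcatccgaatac
Windows were found for 7 of the 10 members (8 windows, since Casp4 has a further start). Gsdmd, Gsdmc2 and Gsdmc4 had none in the table. On both strands of these windows 6 motifs were searched, namely the interferon-stimulated response element (GAAA and, after any 2 bases, GAAA again), the STAT-bound GAS element TTCNNNGAA, the AP-1 site TGANTCA, the CDX2 site TTTATNG, the HNF4A site CAAAGTCCA and the NF-κB consensus, which was added after the Casp4 window had been read. The AP-1 match of Nlrp6 lay at -140 to -134 from the start, and that motif occurs in 6.75% of 32841 promoter windows of this length. The NF-κB matches of Casp4 lay between -93 and -83, with a share of 3.90% over all windows. The other motifs matched none of the members' windows and are found in 2.98% (interferon-stimulated response element), 7.02% (TTCNNNGAA), 9.81% (TTTATNG) and 0.384% (CAAAGTCCA) of all windows. A match describes letters in a window and is not a binding site.

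In organoids with vehicles alone (EtOH DMSO) Casp1, Nlrp6, Pycard and Gsdmd each stood above at least 90.2% of the genes tested, and Casp4 above 38.5%. The order of the mean levels was Casp1, Nlrp6, Pycard, Gsdmd, Il18, Nlrc4 and Casp4. The libraries of Nlrp6 and Pycard overlapped, and no other neighbours in that order did. In EtOH Nec-1 Pycard stood above Nlrp6 and no neighbours overlapped. In 4-OHT DMSO Casp1, Pycard and Gsdmd came first with overlapping libraries, and Nlrp6, Nlrc4, Il18 and Casp4 followed without overlap, so Nlrc4 stood above Il18 there and below it in both EtOH groups. Gsdmc2, Gsdmc3 and Gsdmc4 were at or near 0 throughout.

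**Figure D1:**
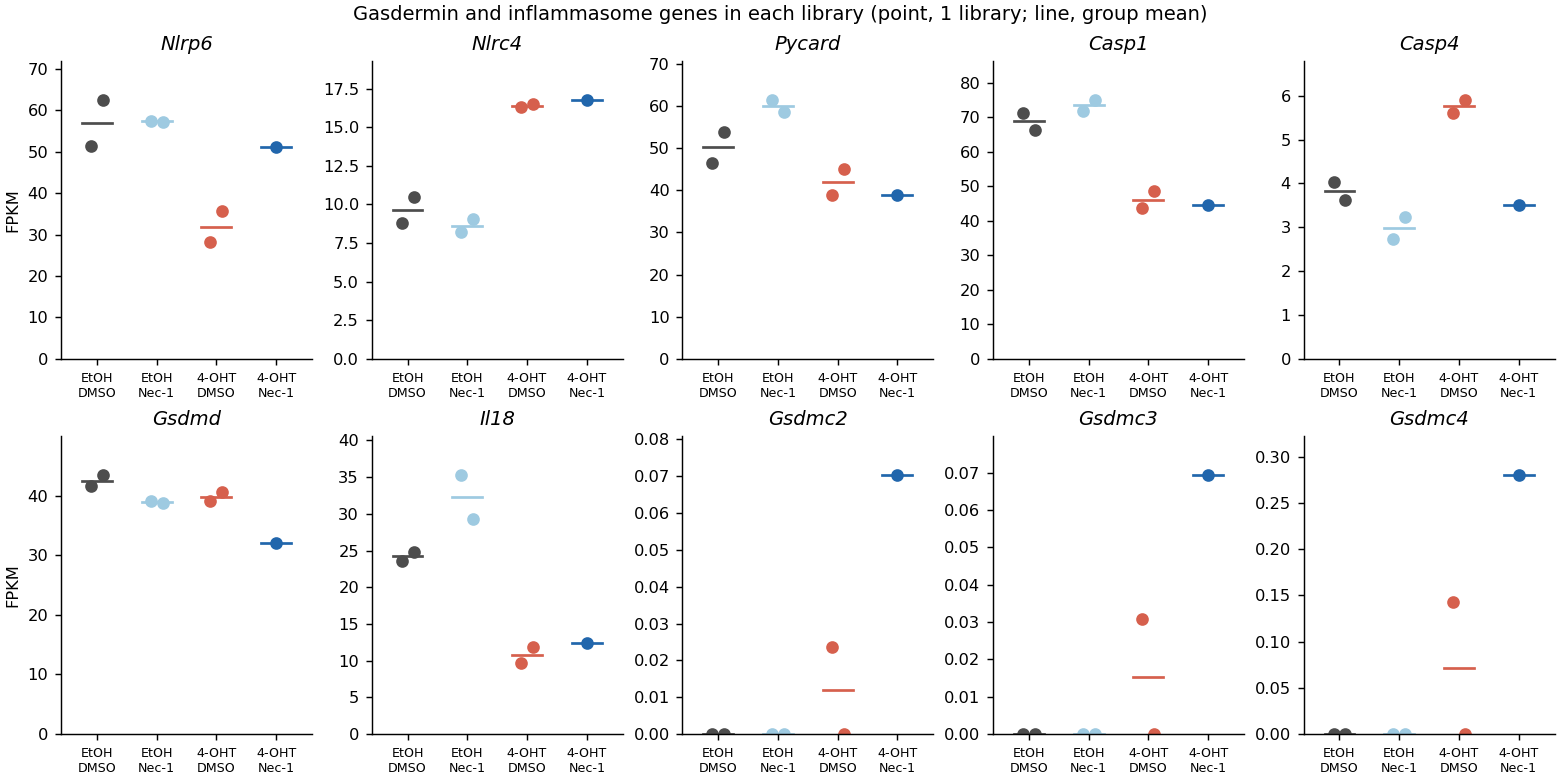
FPKM of the 10 genes (vertical axes from 0, a separate scale for each gene) in the 4 groups, 1 point per library, with a line at the group mean (1 point in 4-OHT Nec-1). Casp1, Il18 and Pycard lie lower in all 3 libraries labelled 4-OHT than in the 4 EtOH libraries, and Nlrc4 lies higher. Nlrp6 and Casp4 are back at or near the EtOH values in 4-OHT Nec-1, Nlrp6 just under the lowest of them. The share of all genes that separate in this way was not counted.

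The first comparison asks what changed in organoids after 4-OHT. Of the 7 members with enough signal to be tested, 5 changed between 4-OHT DMSO and EtOH DMSO, 2 higher and 3 lower. With the libraries centred on their medians or scaled to the same upper quartile, 6 did, 1 higher and 5 lower. Il18, Nlrp6 and Casp1 fell, Nlrc4 and Casp4 rose, and Gsdmd and Pycard did not pass the test (limma on log2(FPKM + 1), Benjamini-Hochberg adjusted p under 0.05 over 12702 genes, n = 2 libraries a group). The background was high. Of all genes tested 41.2% passed in this comparison, 24.5% higher and 16.7% lower, and this share is what the 5 of 7 members are to be read against. The median log2 difference was -0.25 over the members and 0.08 over all genes. With each library centred on its median, the all-gene median of this comparison moved by -0.16, and the share of higher genes among the calls went from 59.5% to 41.0%. Fold changes on this scale understate the change of genes with low FPKM.

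Among the sensors, Nlrp6 (ENSMUSG00000038745, chr7:140920902-140929192) was at 51.4 and 62.5 FPKM with EtOH DMSO, 57.5 and 57.1 with EtOH Nec-1, 28.1 and 35.8 with 4-OHT DMSO and 51.1 with 4-OHT Nec-1. The 2 libraries of 4-OHT DMSO were the lowest of the 7, with no overlap with any other group. Nlrp6 encodes a sensor prominent in intestinal epithelium and tied to goblet cell mucus release. It fell by 0.82 on the log2 scale between 4-OHT DMSO and EtOH DMSO (SE 0.15, limma adjusted p = 0.00967), to 0.561 times the level.

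Nlrc4 (ENSMUSG00000039193, chr17:74426255-74459144), the sensor that works with NAIP proteins, was at 8.80 and 10.5 FPKM with EtOH DMSO, 8.19 and 9.07 with EtOH Nec-1, 16.3 and 16.5 with 4-OHT DMSO and 16.8 with 4-OHT Nec-1. All 3 libraries labelled 4-OHT stood above all 4 EtOH libraries. Its difference of 0.71 on the log2 scale (SE 0.11, limma adjusted p = 0.00572) corresponded to 1.70 times the EtOH DMSO level. The 2 sensors thus changed in opposite directions, and the ratio of Nlrp6 to Nlrc4 FPKM, which no scaling of a library alters, was 5.84 and 5.96 with EtOH DMSO and 1.72 and 2.17 with 4-OHT DMSO.

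Pycard (ENSMUSG00000030793, chr7:127991373-127993867), which encodes the adaptor ASC, was at 46.5 and 53.9 FPKM with EtOH DMSO, 61.5 and 58.6 with EtOH Nec-1, 38.8 and 45.0 with 4-OHT DMSO and 38.8 with 4-OHT Nec-1. Every library labelled 4-OHT lay below every EtOH library, but the gap between 4-OHT DMSO and EtOH DMSO was small beside the spread within them. The difference was -0.25 on the log2 scale (SE 0.11, limma adjusted p = 0.127), with a 95% confidence interval of -0.54 to 0.03. With median centring it was -0.41 and passed the test (limma adjusted p = 0.0279), and with upper quartile scaling it did likewise (-0.42, limma adjusted p = 0.0277). Over all alternatives the adjusted p ran from 0.0277 to 0.385.

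Of the caspases, Casp1 (ENSMUSG00000025888, chr9:5298517-5307281) had the highest mean level of the members in each group of 2 libraries, and stood below Nlrp6 in 4-OHT Nec-1. It was at 71.3 and 66.2 FPKM with EtOH DMSO, 71.8 and 75.0 with EtOH Nec-1, 43.6 and 48.5 with 4-OHT DMSO and 44.6 with 4-OHT Nec-1. The 3 libraries labelled 4-OHT were all lower than the 4 EtOH libraries. Casp1 encodes the protease of the canonical inflammasome. It fell by 0.57 on the log2 scale (SE 0.09, limma adjusted p = 0.00628), to 0.670 times the EtOH DMSO level.

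Casp4 (ENSMUSG00000033538, chr9:5308849-5336791), the non-canonical caspase, lies 1567 bases beyond Casp1 and was at 4.04 and 3.63 FPKM with EtOH DMSO, 2.73 and 3.24 with EtOH Nec-1, 5.61 and 5.91 with 4-OHT DMSO and 3.51 with 4-OHT Nec-1. Only the 4-OHT DMSO libraries were above 5 FPKM, and 4-OHT Nec-1 lay between EtOH Nec-1 and EtOH DMSO. The difference of 0.48 between 4-OHT DMSO and EtOH DMSO (SE 0.11, limma adjusted p = 0.0205) did not hold under every setting. It was 0.33 with median centring (limma adjusted p = 0.0677) and 0.34 with upper quartile scaling (limma adjusted p = 0.0520). It also missed the threshold without the second EtOH DMSO library (0.42, limma adjusted p = 0.0767) or the second 4-OHT DMSO library (0.45, limma adjusted p = 0.0694), and the range over all alternatives was 0.0177 to 0.0767. The ratio of Casp1 to its neighbour Casp4 within a library was 17.6 and 18.2 with EtOH DMSO, 26.4 and 23.2 with EtOH Nec-1, 7.78 and 8.21 with 4-OHT DMSO and 12.7 with 4-OHT Nec-1. These ratios did not overlap between any of the groups.

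**Figure D2:**
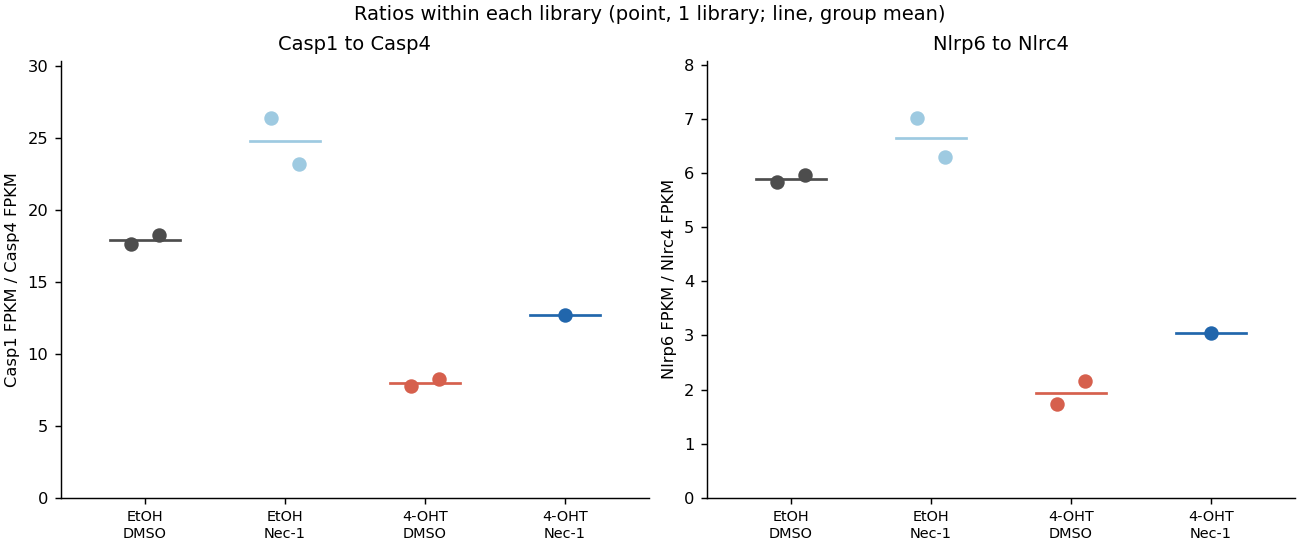
Ratio of Casp1 to Casp4 FPKM (left) and of Nlrp6 to Nlrc4 FPKM (right) in each library by group, with a line at the group mean and axes from 0. Both ratios are lowest in 4-OHT DMSO (7.78 and 8.21, and 1.72 and 2.17) and are 12.7 and 3.05 in the 4-OHT Nec-1 library, still below every EtOH library.

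Gsdmd (ENSMUSG00000022575, chr15:75862144-75867408), the pore-forming substrate of both caspases, varied least. It was at 41.6 and 43.4 FPKM with EtOH DMSO, 39.1 and 38.8 with EtOH Nec-1, 39.1 and 40.5 with 4-OHT DMSO and 32.1 with 4-OHT Nec-1. The 4-OHT Nec-1 library was the lowest, and the other groups lay close together. The difference between 4-OHT DMSO and EtOH DMSO was -0.09 on the log2 scale (SE 0.07, limma adjusted p = 0.354), and its 95% confidence interval of -0.27 to 0.09 does not reach the -0.57 of Casp1. Relative to the median of the genes it was -0.25 and passed the test (limma adjusted p = 0.0396 with median centring, 0.0389 with upper quartile scaling, and 0.0389 to 0.599 over all alternatives). The ratio of Casp1 to Gsdmd was 1.72 and 1.52 with EtOH DMSO and 1.12 and 1.20 with 4-OHT DMSO.

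The 3 Gsdmc genes, a cluster on chromosome 15 known for induction in the intestinal epithelium during type 2 immunity, had no usable signal. Of their 21 values 15 were listed at 0. Gsdmc2 (ENSMUSG00000056293, chr15:63824328-63845193) was listed at 0 in all 4 EtOH libraries and in the second 4-OHT DMSO library, at 0.0236 FPKM in the first and at 0.0704 with 4-OHT Nec-1. Gsdmc3 (ENSMUSG00000055827, chr15:63857605-63878579) had 0.0307 and 0.0693 FPKM in the same 2 libraries and was listed at 0 in the other 5. Gsdmc4 (ENSMUSG00000055748, chr15:63891140-63912319) reached 0.143 in the first 4-OHT DMSO library and 0.280 with 4-OHT Nec-1, the highest value of the cluster, and was listed at 0 elsewhere. They failed the filter of 1 FPKM in at least 2 libraries and were not tested. The genes are near-identical copies 12411 and 12560 bases apart, and how shared fragments were divided among them is not known, so the summed level of 0.197 and 0 with 4-OHT DMSO and 0.420 with 4-OHT Nec-1 is the safer value. The nonzero values fall in 2 libraries labelled 4-OHT, at levels under 1 FPKM where few fragments decide.

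Il18 (ENSMUSG00000039217, chr9:50554700-50581841), the epithelial cytokine that caspase-1 matures, was at 23.6 and 24.8 FPKM with EtOH DMSO, 35.3 and 29.2 with EtOH Nec-1, 9.66 and 11.9 with 4-OHT DMSO and 12.4 with 4-OHT Nec-1. No library labelled 4-OHT came near any EtOH library. Il18 was the only member to change by at least 1 log2 unit. It fell by 1.11 on the log2 scale (SE 0.14, 95% confidence interval -1.45 to -0.76, limma adjusted p = 0.00296), to 0.445 times the EtOH DMSO level.

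The calls of Il18, Nlrp6, Casp1 and Nlrc4 held under both other scalings, where Nlrc4 was 0.56 higher and the falls grew to -1.26, -0.97 and -0.73 with median centring. In all 7 tested members the 2 libraries of 4-OHT DMSO and EtOH DMSO did not overlap, 2 members higher and 5 lower, as was so for 71.6% of all genes tested (40.7% higher and 30.8% lower). The share of all genes with every 4-OHT library apart from every EtOH library was not counted. Markers of epithelial cell types moved in the same comparison. All 6 Paneth, all 6 goblet and all 3 enteroendocrine markers rose (median log2 difference 1.26, 1.14 and 1.03). Of 5 enterocyte markers tested 2 rose and 2 fell, and 3 of 4 stem markers fell (median -0.76). Of those 3, Lgr5 reached 1 FPKM in the EtOH DMSO libraries alone, so it could only come out lower. Olfm4 and Smoc2, the 2 stem markers at 1 FPKM or more in every library, both fell (median -1.08). With median centring 4 of 6 goblet markers rose and 3 enterocyte markers fell, and the counts of the Paneth, enteroendocrine and stem lists were the same. The summed level of the Paneth markers was 7399 to 8874 FPKM in the 4 EtOH libraries, 19155 and 19688 with 4-OHT DMSO and 14695 with 4-OHT Nec-1. The stem markers summed to 40.4 and 36.8 with EtOH DMSO, 27.5 and 25.6 with EtOH Nec-1, 22.4 and 15.4 with 4-OHT DMSO and 7.63 with 4-OHT Nec-1. In bulk samples fewer cells of a type and less RNA per cell cannot be told apart, and the part of these shifts in the members' changes was not tested.

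The second comparison asks what Nec-1 did in organoids without 4-OHT. None of the 7 members passed the test (0 calls, limma adjusted p 0.337 to 0.982), and only 0.22% of all genes did (0.173% higher and 0.0472% lower). At an unadjusted p under 0.05 there were 2, Il18 and Casp4. Il18 differed by 0.39 on the log2 scale (SE 0.14, 95% confidence interval 0.05 to 0.74, limma adjusted p = 0.337), with both EtOH Nec-1 libraries above both EtOH DMSO libraries. Casp4 differed by -0.28 (SE 0.11, 95% confidence interval -0.56 to -0.01, limma adjusted p = 0.372), with both Nec-1 libraries below. Pycard was 0.26 higher without passing (SE 0.11, 95% confidence interval -0.03 to 0.54, limma adjusted p = 0.412).

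The other 4 members differed less. Casp1 differed by 0.09 (95% confidence interval -0.13 to 0.32) and Gsdmd by -0.12 (-0.31 to 0.06). The libraries of Nlrp6 (0.02, -0.36 to 0.39) and Nlrc4 (-0.14, -0.41 to 0.13) overlapped between the groups. Libraries did not overlap in 5 of 7 members, 3 higher and 2 lower, against 49.6% of all genes (10.5% higher and 39.1% lower).

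The third comparison sets the single 4-OHT Nec-1 library beside the 2 of 4-OHT DMSO and has no test. Nlrp6 was 0.84 and 0.50 higher on the log2 scale than the 2 DMSO libraries, and its 51.1 FPKM lay just under the lowest EtOH value of 51.4. Casp4 was 0.55 and 0.61 lower than the 2 DMSO libraries. Both differences ran against the change seen with 4-OHT. The 2 comparisons share the 4-OHT DMSO libraries, so their signs are not independent.

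The remaining members stayed nearer to 4-OHT DMSO. Nlrc4 was 0.04 and 0.02 higher, Il18 0.33 and 0.05 higher, and Casp1 lay between the 2 libraries. Gsdmd was 0.28 and 0.33 lower. Pycard was 0.21 lower than the second library and within 0.01 of the first. Outside both DMSO libraries lay 6 of 7 members, 3 above and 3 below, where 75.1% of all genes did (24.5% above and 50.6% below). Under both other scalings 6 members did too, but 4 above and 2 below. The difference of Casp1 from the mean of the DMSO libraries turned from -0.04 to 0.07 with median centring and 0.09 with upper quartile scaling, and that of Gsdmd went from -0.30 to -0.19 and -0.17. None was outside by at least 1 log2 unit, against 1.98% of all genes.

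**Figure D3:**
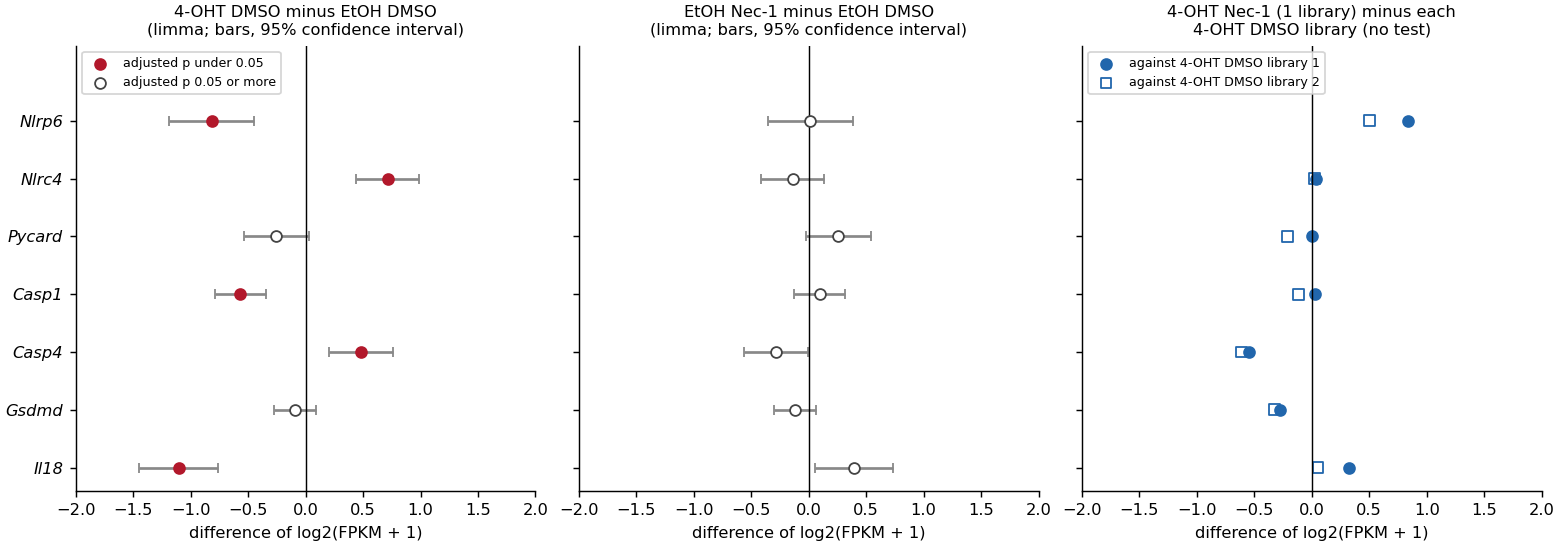
Differences of log2(FPKM + 1) for the 7 tested members. The left and middle panels give limma estimates with 95% confidence intervals for 4-OHT DMSO and EtOH Nec-1 against EtOH DMSO (filled points, adjusted p under 0.05), and the right panel gives the single 4-OHT Nec-1 library minus each 4-OHT DMSO library. Il18 (-1.11), Nlrp6 (-0.82) and Casp1 (-0.57) lie left of 0 in the first panel and Nlrc4 (0.71) and Casp4 (0.48) right of it, no point is filled in the middle panel, and Nlrp6 and Casp4 lie farthest from 0 in the right one.

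Set against EtOH Nec-1, so that both sides had received Nec-1, the 4-OHT Nec-1 library differed in the direction of the first comparison for all 7 members. Gsdmd and Pycard had not passed the test in that comparison. The share of all genes that kept their direction was not counted, so this agreement has no background to be read against. Il18 was 1.44 and 1.18 lower than the 2 EtOH Nec-1 libraries, and Casp1 was 0.67 and 0.74 lower. Nlrc4 was 0.95 and 0.82 higher and Pycard 0.65 and 0.58 lower. For Nlrp6 the gap was 0.17 and 0.16 lower, and for Casp4 it was 0.28 and 0.09 higher. All 7 members lay outside both EtOH Nec-1 libraries, 5 below and 2 above, as did 88.8% of all genes (38.8% below and 49.9% above), and Il18 was the 1 member outside by at least 1 log2 unit (6.18% of all genes were). Under both other scalings 6 members lay outside, 1 above and 5 below. The difference of Casp4 from the mean of the EtOH Nec-1 libraries then went from 0.18 to 0.04 with median centring and 0.08 with upper quartile scaling, and that of Nlrp6 from -0.16 to -0.30 in both.

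Interferon-stimulated genes moved by more than the members. Of 15 such genes 14 were tested, and all 14 were higher in 4-OHT DMSO. Of these, 7 were at 1 FPKM or more in every library, and all 7 rose, with a median log2 difference of 2.44. Another 6 were under 1 FPKM in every EtOH library and passed the filter through the 4-OHT libraries, so that they could only come out higher. The summed level of the 15 genes was 31.0 to 37.1 FPKM in the 4 EtOH libraries and 840.2 and 1132 with 4-OHT DMSO. It was 131 with 4-OHT Nec-1, where all 14 lay below both DMSO libraries, as did 50.6% of all genes. Isg15, an interferon-induced ubiquitin-like protein, was at 331 and 469 FPKM in the 4-OHT DMSO libraries and at 27.3 with Nec-1. Casp4 too was highest in the 4-OHT DMSO libraries. Whether the interferon-stimulated genes and Casp4 are linked was not tested.

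The wider pathway list held 51 other genes, of which 49 were matched and 26 tested. Between 4-OHT DMSO and EtOH DMSO 10 were called higher, 2 lower and 14 did not pass, a share of calls near the 41.2% of all genes. The 4 called genes Gbp3, Gbp7, Il18bp and Il33 were under 1 FPKM in every EtOH library and passed the filter through the 4-OHT libraries. They could only come out higher, so their calls are not read as results and their levels are given without p-values. Of the 19 genes at 1 FPKM or more in every library 5 rose and 2 fell, where 24.5% and 16.7% of all genes tested did. Their median log2 difference was 0.08, as over all genes. The minimum of 1 FPKM in every library would also leave out a gene that fell below it, and none of the 7 genes it left out was called lower. With EtOH Nec-1 against EtOH DMSO none passed in limma (0 of 26, adjusted p 0.284 to 0.995), and Ninj1 and Irf2 were under an unadjusted p of 0.05. Between 4-OHT DMSO and EtOH DMSO, Irf8 gained a call under both other scalings of the libraries, as lower. In 4-OHT Nec-1, 17 of the 26 lay below both 4-OHT DMSO libraries and 6 above, against 50.6% and 24.5% of all genes. Among those below were Gbp3, Gbp7, Il18bp and Il33, which passed the filter through the 4-OHT libraries.

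Of the other sensors, 1 rose and 2 fell among 7 tested, where 24.5% and 16.7% of all genes tested did. Aim2, the sensor of cytosolic DNA, was at 4.58 and 4.55 FPKM with EtOH DMSO, 7.67 and 7.39 with 4-OHT DMSO and 5.89 with 4-OHT Nec-1, a difference of 0.62 between the DMSO groups (SE 0.08, limma adjusted p = 0.00400). Nlrp3, the sensor best known from myeloid cells, was listed at 0 in 6 libraries and at 0.0266 FPKM with 4-OHT Nec-1. The flagellin receptors that act with NLRC4 went the other way from Nlrc4 itself. Naip6 was at 14.6 and 20.3 FPKM with EtOH DMSO, 18.1 and 18.7 with EtOH Nec-1, 7.11 and 6.66 with 4-OHT DMSO and 11.0 with 4-OHT Nec-1. It fell by 1.21 on the log2 scale (SE 0.16, limma adjusted p = 0.00347). Naip5, with 9.20 and 10.6 FPKM with EtOH DMSO against 6.56 and 7.10 with 4-OHT DMSO, fell by 0.48 (SE 0.10, limma adjusted p = 0.0164). Naip5 missed the threshold without the first 4-OHT DMSO library (-0.43, limma adjusted p = 0.0545) or the second EtOH DMSO library (-0.38, limma adjusted p = 0.0556).

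Naip1 and Naip2, which recognise secretion-system proteins, did not pass, with differences of 0.30 and 0.08 (limma adjusted p = 0.261 and 0.667). The ratio of Naip6 to Nlrc4 FPKM was 1.66 and 1.93 with EtOH DMSO, 2.21 and 2.06 with EtOH Nec-1, 0.436 and 0.403 with 4-OHT DMSO and 0.654 with 4-OHT Nec-1. It separated the EtOH from the 4-OHT libraries without overlap, which follows from Naip6 and Nlrc4 each doing so in opposite directions. The Naip genes are close paralogs among which fragments may have been misassigned. Their summed level was 42.3 and 57.3 FPKM with EtOH DMSO, 52.6 and 54.2 with EtOH Nec-1, 38.9 and 40.1 with 4-OHT DMSO and 55.9 with 4-OHT Nec-1. All 4 Naip genes lay above both 4-OHT DMSO libraries in 4-OHT Nec-1, as Nlrp6 and 24.5% of all genes did.

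Of the other gasdermins only Gsdme, a pore-forming relative of Gsdmd, was tested. It was at 1.04 and 0.940 FPKM with EtOH DMSO, 0.935 and 0.924 with EtOH Nec-1, 1.81 and 1.59 with 4-OHT DMSO and 1.32 with 4-OHT Nec-1. The 3 libraries labelled 4-OHT were the highest. The difference of 0.44 between the DMSO groups passed (SE 0.12, limma adjusted p = 0.0312), but the gene reached 1 FPKM in only 1 EtOH library and so entered the test through the 4-OHT libraries. It missed the threshold under both other scalings (limma adjusted p = 0.110 and 0.0713) and without any 1 of the 6 replicated libraries (limma adjusted p 0.0552 to 0.106).

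Among 14 tested executioners and regulators 5 were called higher and none lower, where 24.5% and 16.7% of all genes tested were. Of the 5, Gbp3 and Gbp7 passed the filter through the 4-OHT libraries and could only come out higher. Of the 12 at 1 FPKM or more in every library 3 rose, Irf1, Ninj1 and Panx1. Gbp3, an interferon-induced guanylate-binding protein, was at 0 to 0.109 FPKM in the EtOH libraries, 2.72 and 4.83 with 4-OHT DMSO and 0.116 with 4-OHT Nec-1. Gbp7 of the same family was at 0 to 0.184 FPKM in the EtOH libraries, 1.46 and 2.74 with 4-OHT DMSO and 0.241 with 4-OHT Nec-1. In both, the 4-OHT DMSO libraries stood apart from the rest. Irf1, a transcription factor of the interferon response, rose by 1.65 (SE 0.11, limma adjusted p = 0.000608). Ninj1, which ruptures the membrane of dying cells downstream of gasdermin pores, was at 5.18 and 6.75 FPKM with EtOH DMSO, 16.4 and 15.4 with 4-OHT DMSO and 15.8 with 4-OHT Nec-1. It rose by 1.29 (SE 0.13, limma adjusted p = 0.00181), and the Nec-1 library lay between the DMSO libraries. Panx1, a membrane channel opened by caspases, rose by 1.02 (SE 0.12, limma adjusted p = 0.00289) and stood at 6.10 FPKM with 4-OHT Nec-1 beside 5.12 and 5.98 with 4-OHT DMSO. In this sublist Gbp3, Gbp7 and Irf1 were thus lower than both DMSO libraries in 4-OHT Nec-1, by 2.06, 1.29 and 0.84 log2 units from their mean, while Ninj1 and Panx1 were not.

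Of 4 tested genes of the IL-1 family 3 were called higher, where 24.5% of all genes tested were. Of these 3, Il18bp and Il33 passed the filter through the 4-OHT libraries and could only come out higher. Of the 2 at 1 FPKM or more in every library, Il1rn rose and Sigirr did not pass. The member Il18 fell. Il18bp, the secreted antagonist of interleukin-18, was at 0.348 and 0.579 FPKM with EtOH DMSO, 0.327 and 0.251 with EtOH Nec-1, 1.61 and 2.46 with 4-OHT DMSO and 1.60 with 4-OHT Nec-1. The 3 libraries labelled 4-OHT were above all EtOH libraries. Il1rn, the interleukin-1 receptor antagonist, was at 2.1 and 3.37 FPKM with EtOH DMSO, 8.54 and 20.8 with 4-OHT DMSO and 3.65 with 4-OHT Nec-1. It rose by 1.97 (SE 0.40, limma adjusted p = 0.0142), and was 1.72 higher without passing when EtOH DMSO replicate 1 was left out (limma adjusted p = 0.0816). Il33, an epithelial alarmin, was at 0.334 and 0.476 FPKM with EtOH DMSO, 1.67 and 1.14 with 4-OHT DMSO and 0.326 with 4-OHT Nec-1. Il1b, the other main substrate of caspase-1, never exceeded 0.0506 FPKM.

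**Figure D4:**
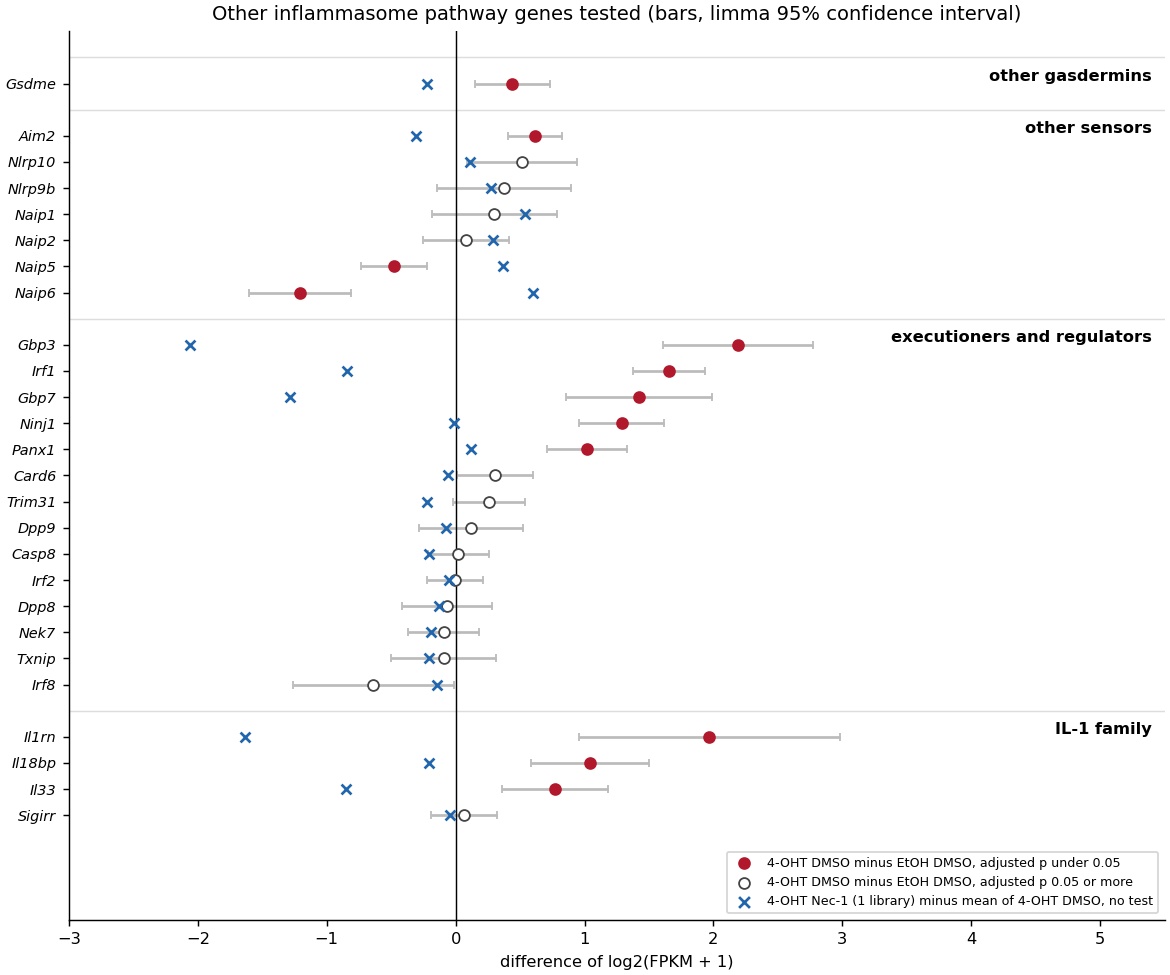
Difference of log2(FPKM + 1) for the 26 tested genes of the wider pathway list, by sublist. Circles with 95% confidence intervals are 4-OHT DMSO against EtOH DMSO by limma (filled, adjusted p under 0.05). Crosses are the single 4-OHT Nec-1 library minus the mean of the 4-OHT DMSO libraries. Gbp3, Gbp7, Il18bp and Il33 passed the filter through the 4-OHT libraries and could only come out higher, so their filled circles are not read as results. Gbp3 (2.19 and -2.06) and Il1rn (1.97 and -1.63) lie on opposite sides for the 2 marks. Ninj1 (1.29) has its cross near 0, and Naip6 (-1.21 and 0.60) is the reverse of Gbp3 and Il1rn. Both marks use the 4-OHT DMSO libraries, so their signs are not independent.

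The members' profiles over the 7 libraries were compared with those of 3815 tested genes whose log2 range was at least 1, as a description in which all points share the same libraries. Il18 was most like Bin2 and Chdh (Pearson's r of 0.989 and 0.987), Nlrp6 like Slc26a6 and Aldh1l2 (0.990 and 0.989) and Casp1 like Zfp960 and Gm17025 (0.999 and 0.993). Nlrc4 was most like Zfp628 and Prss32 (0.997 each), and Casp4 like Wdr73 and Cks1b (0.986 and 0.978). Gsdmd was most like Tnfsf10 and Gm17201 (0.992 and 0.966) and Pycard like Gm13073 and Chdh (0.951 and 0.943). These are the highest r among 3815 genes over only 7 libraries. Bin2, Tnfsf10 and Gm13073 reached down to 0.149, 0.570 and 0.323 FPKM, and Gsdmd itself spanned only 0.43 log2 units. Over the 21 pairs of members r ran from -0.98, between Casp1 and Nlrc4, to 0.96, between Casp1 and Il18.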

How the data were processed

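Bulk RNA-seq of 7 organoid libraries in 4 groups was analysed, and 2 CUT&Tag samples were not analysed here. The authors deposited FPKM per Ensembl mouse gene and library. The submitters' processing notes name HISAT2 2.1.0, StringTie 1.3.3b and the build mm10, and fragment counts are not given in the sources used here, so depth is unknown and no counting interval is given. Of 7 tables, 1 holds 3 libraries, and its columns that repeat other tables were equal to within 0.001 of their value. No column was left unmapped (0). Of 54838 identifiers, 54723 matched a gene symbol, and the coordinates of the members come from the GRCm38.p6 RefSeq table.

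log2(FPKM + 1) values of all 7 libraries were fitted in limma 3.58.1 (R 4.3.3) with a mean-variance trend and 1 mean per group, leaving 3 residual degrees of freedom. A gene was kept if 2 or more libraries reached 1 FPKM (12702 genes). Adjusted p-values (Benjamini-Hochberg) under 0.05 were called. The script was tested on simulated data. Tables were handled in pandas 2.3.3 and numpy 2.4.6 (Python 3.11.15) and drawn in matplotlib 3.10.9. The 4-OHT Nec-1 library was described without a test over genes whose mean over the libraries compared was 1 FPKM or more.

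The members and the lists were chosen with earlier results of these data known, and 2 genes first on the pathway list are not reported here. The genes named are the 10 members, up to 5 genes past the threshold per pathway sublist by size of change, Nlrp3, Aim2, Il1b, Gsdme, Mettl3, Isg15, and the 2 genes most like each tested member. Naip1, Naip2, Irf2, Irf8 and the marker genes were named after their values were seen. Alternatives were 2 other scalings, 2 filters, pseudocounts of 0.1 and 0.25, no trend, a replicate block, the libraries of 1 comparison alone, an added threshold of 1 log2 unit and leaving out each replicated library.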

Additional observations from a re-analysis of the deposited data

Results flagged for a closer look

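Pycard was singled out because its difference with Nec-1 had opposite signs in organoids without and with 4-OHT. It was 0.26 on the log2 scale in EtOH organoids, where both Nec-1 libraries lay above both DMSO libraries, and -0.10 in 4-OHT organoids, where the single Nec-1 library lay below both DMSO libraries, the nearer of them by under 0.01. The difference between the 2 effects was not tested. The sign in 4-OHT organoids depends on the scaling, as given with the other settings.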

How the results depend on the processing

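Between 4-OHT DMSO and EtOH DMSO, Il18, Nlrp6, Casp1 and Nlrc4 kept their direction and an adjusted p under 0.05 in every alternative fit, and the settings that changed the calls of Casp4, Gsdmd and Pycard are given in the report. With an added threshold of 1 log2 unit, 1 member was called in place of 5, and 8 genes of the pathway list in place of 12. The pathway list had 7 calls with the filter of 1 FPKM in every library, which left 19 genes to test. That left 5 higher and 2 lower, against 10 and 2. Leaving out each library in turn gave 4 to 5 members and 8 to 11 pathway genes, 6 of them called each time, and 0 in both lists for EtOH Nec-1 against EtOH DMSO. In the descriptions of the 4-OHT Nec-1 library, asking for 1 log2 unit gave 0 members in place of 6 against 4-OHT DMSO. Against EtOH Nec-1 it gave 1 in place of 7. Leaving out 1 library of the other group is no check of these counts. Any member that differs at all from the 1 library left lies outside it, so all 7 did in both.

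Under both other scalings 6 members were called in the first comparison, 1 higher and 5 lower. Some directions reversed. The Nec-1 difference of Nlrp6 in EtOH organoids was -0.12 without EtOH DMSO replicate 1, against 0.02, and -0.12 to 0.15 over all fits that left out 1 library. That of Pycard in 4-OHT organoids was 0.0096 with median centring and 0.027 with upper quartile scaling, against -0.10, and that of Casp1 turned likewise, as given in the report. Over all genes, 1319 in place of 5237 passed with the 1 log2 threshold in the first comparison. In the second, 28 became 43 with upper quartile scaling, 8 without a filter, 87 with only the 4 libraries compared and 9 to 79 without 1 library. The cause was not tested.

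Same-numbered libraries did not deviate together (correlations of -0.04, 0.01 and -0.01 between groups over 12702 genes), so the numbers were not taken to pair the samples. With the replicate block, the same 5 members passed, and the counts over all genes were 4697 in place of 5237 and 19 in place of 28. FPKM gives no counts, so the values under 1 FPKM, the Gsdmc genes among them, cannot be weighed by depth.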
